A study of Homo sapiens with 2 samples.

Results

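TFPI2 (ENSG00000105825) encodes tissue factor pathway inhibitor 2, a secreted protein of the Kunitz type that sits in the extracellular matrix and blocks serine proteases such as plasmin and trypsin. Kunitz domains are small, disulfide-bonded folds whose exposed loop plugs the active site of a protease. TFPI2 is known in tumours as a gene that is often switched off by promoter methylation, and its loss is linked to matrix breakdown. In the data described here it was 1 gene of 33538, followed over single cells of SH-SY5Y, an established neuroblastoma line of adrenergic character that is widely used as a model of neuron-like cells.

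The cells were untreated and came from 2 flasks of the same culture, called SplitA and SplitB, so the flasks are replicates of a single condition and no treatment, genotype or time was compared. Each flask was labelled with its own hashtag antibody, both flasks were pooled, and 1 mRNA library and 1 hashtag library were made (CITE-seq with Cell Hashing). A cell was assigned to a flask where one hashtag count was at least 3 times the other and the other was no higher than the background limit of the study's own demultiplexing, and it was kept where it held at least 1000 genes. This kept 2094 of 2879 cells, 899 in SplitA and 1195 in SplitB, with a median of 6063 and 6346 UMIs (unique molecular identifiers, each standing for 1 captured transcript). TFPI2 was chosen for its pattern over these same cells, so its values are given as a description with no test, and intervals cover counting error only. The flask of every cell rests on the hashtag barcodes, which differ at 10 of their 15 bases.
Hashtag 1, SplitA: gtcaactctttagcg
Hashtag 2, SplitB: tgatggcctattggg

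TFPI2 lies on the minus strand of GRCh38 at chr7:93885396-93890753 and has 5 exons in GENCODE release 44. The library primes from the 3′ end of transcripts, so most counts should stem from the last exon (chr7:93885396-93886896, 1501 bases), which holds the end of the coding sequence and the 3′ untranslated region. GNGT1, a transducin subunit gene, overlaps TFPI2 on the opposite strand and had 2 UMIs in the kept cells against 795 for TFPI2. The divergent long non-coding gene TFPI2-DT starts 160 bases upstream of the TFPI2 start and had 9 UMIs.

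The 250 bases before the start are shown for TFPI2 and for 3 of the genes that varied with it over cells (given later), to place the letters of known promoter elements beside the expression values. Capitals mark AP-1 (TGANTCA) and GC box (GGGCGG) letters on either strand, and positions count backwards from the base before the start. All are RefSeq sequences of GRCh38.p14, printed along the gene's strand, namely TFPI2 at chr7:93890754-93891003 (minus), S100A11 at chr1:152037005-152037254 (minus), GNG11 at chr7:93921485-93921734 (plus) and ANXA2 at chr15:60397987-60398236 (minus).
TFPI2: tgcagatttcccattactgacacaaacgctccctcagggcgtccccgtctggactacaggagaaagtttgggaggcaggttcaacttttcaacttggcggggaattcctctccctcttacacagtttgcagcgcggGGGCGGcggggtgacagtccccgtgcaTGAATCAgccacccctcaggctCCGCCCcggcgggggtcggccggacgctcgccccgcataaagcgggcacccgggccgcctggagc
S100A11: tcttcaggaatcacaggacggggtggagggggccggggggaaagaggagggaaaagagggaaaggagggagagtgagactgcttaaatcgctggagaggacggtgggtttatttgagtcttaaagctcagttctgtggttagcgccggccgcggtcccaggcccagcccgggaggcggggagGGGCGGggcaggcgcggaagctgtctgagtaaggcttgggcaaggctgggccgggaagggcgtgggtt
GNG11: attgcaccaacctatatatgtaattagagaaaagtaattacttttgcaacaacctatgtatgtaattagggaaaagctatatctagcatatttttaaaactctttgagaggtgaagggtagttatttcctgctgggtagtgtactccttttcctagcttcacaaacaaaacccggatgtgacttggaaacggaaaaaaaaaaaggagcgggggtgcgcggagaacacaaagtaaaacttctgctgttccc
ANXA2: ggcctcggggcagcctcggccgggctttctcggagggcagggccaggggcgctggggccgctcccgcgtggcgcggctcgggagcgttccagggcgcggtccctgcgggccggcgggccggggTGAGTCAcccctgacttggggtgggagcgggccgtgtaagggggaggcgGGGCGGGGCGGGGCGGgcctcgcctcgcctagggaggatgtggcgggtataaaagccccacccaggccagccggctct

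The TFPI2 stretch held 1 AP-1 match at position -87 and 2 GC boxes at -114 and -65. Its GC content was 64.4% and it held 20 CpG dinucleotides, more than 67.6% of 35116 promoters of this length. AP-1 letters were found in 6.57% of those promoters and a GC box in 42.6%. ANXA2 also held an AP-1 match, at -127, with 3 overlapping GC boxes. S100A11 held a GC box alone, and GNG11 neither element, with a GC content of 38.4%. VIM, S100A6 and VGF, which also varied with TFPI2, held no AP-1 match and 1, 3 and 3 GC boxes. CHGB, GAL, DLK1 and GNAS had no single promoter entry and were not read. The core of the cAMP response element (CRE, TGACG, in 21.2% of promoters), the TATA box (TATAAA, 10.7%) and the E-box (CACGTG, 6.34%) had no match before TFPI2. VGF held 2 overlapping CRE cores (at -79 and -76), which are 1 site read on both strands, 1 TATA box and 1 E-box. S100A6 held 1 CRE core at -229 and ANXA2 1 TATA box at -31. S100A11, GNG11 and VIM held none of these elements. A match is a description of letters and not of binding.

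TFPI2 was detected in a minority of cells in both flasks. In SplitA, 117 of 899 cells held a UMI of the gene, a share of 13.01% (exact 95% binomial interval 10.9% to 15.4%). In SplitB, 197 of 1195 cells did, a share of 16.5% (14.4% to 18.7%). The intervals overlapped. When every cell was thinned at random to 2000 UMIs, which left out 1 cell in SplitA and 2 in SplitB, the shares were 5.12% (3.77% to 6.77%) and 7.38% (5.96% to 9.01%), so the share of positive cells depended strongly on depth. No cell type that lacks TFPI2 was in the culture, so the level of free RNA in droplets could not be read from one. A background equal in every cell could be at most 0.139 UMIs per cell in SplitA and 0.18 in SplitB, given the cells without a UMI, which is 49.2% and 39.9% of the mean. Such a background would put 3 or more UMIs into 0.366 cells of SplitA and 1.02 of SplitB, where 32 and 51 cells had that many. Free RNA that differs from cell to cell was not tested.

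The counts were gathered in few cells. In SplitA 782 cells had no TFPI2 UMI, 70 had 1, 15 had 2, 17 had 3 or 4, and 15 had 5 to 8. SplitB had 998 cells with none, 120 with 1, 26 with 2, 15 with 3 or 4, 27 with 5 to 9, and 9 with 10 or more, up to 28. A Poisson count with the same overall proportion and the same cell totals would leave 75.8% and 64.8% of cells at 0, where 87.0% and 83.5% were observed, and would give 5 or more UMIs to 0.0537 and 0.535 cells, where 15 and 36 were observed. The top 5% of cells by TFPI2 held 71.0% of its UMIs in SplitA and 71.5% in SplitB.

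**Figure D1:**
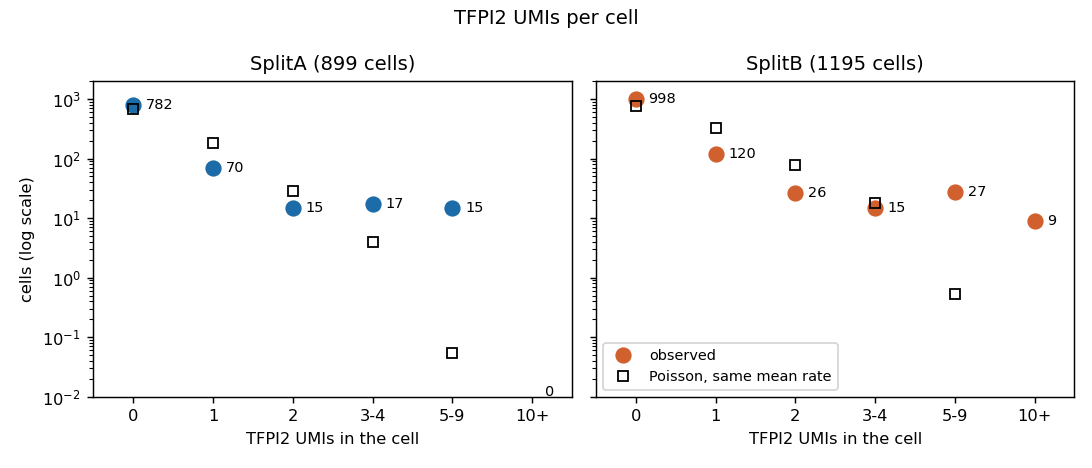
Number of cells (log scale) by TFPI2 UMIs in the cell for each flask; filled points and numbers are observed cells, and open squares are the cells a Poisson count of the same proportion and cell totals would give (values under 0.01 are not drawn). Cells with 5 or more UMIs were 15 in SplitA and 36 in SplitB, against 0.0537 and 0.535 under the Poisson count.

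The variance of TFPI2 UMIs over cells was 3.59 times the mean in SplitA and 7.14 times in SplitB. The 5 genes nearest to TFPI2 in mean UMIs per cell were LARS1 (leucyl-tRNA synthetase), SPG21, EIF2S3 (a translation initiation factor subunit), RBBP6 (a ubiquitin ligase) and EXOC7 (an exocyst subunit). Their ratios ranged from 1.07 to 1.20, and each was detected in 29.0% to 31.5% of cells. By this ratio TFPI2 ranked 3 of 3158 genes with 0.5 to 2 times its mean in SplitA, where the median was 1.10, and 4 of 2243 in SplitB, where it was 1.14. Thus at a like mean TFPI2 was found in fewer cells than these genes, with more UMIs in some of them. The study had already named TFPI2 among the most variable genes of these cells, so its high rank is no independent result.

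Cells with 5 or more TFPI2 UMIs had higher totals, with medians of 8073 UMIs in SplitA and 8610 in SplitB, against 6011.5 and 6245 in cells without one. Their hashtags were those of single flasks, which the rule for keeping a cell had already required. Within that rule, the higher hashtag count was at least 990 and 644, and the other at most 155 and 42. Doublets within a flask share a hashtag and were not identified.

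As a level, TFPI2 made up 43.6 CPM (counts per 1000000) of the summed UMIs in SplitA (255 UMIs, exact 95% Poisson interval 38.4 to 49.3) and 66.9 CPM in SplitB (540 UMIs, 61.4 to 72.8). The mean over flasks was 55.3 ± 16.5 CPM (SD, n = 2). SplitB was thus 1.54 times as high as SplitA (exact interval 1.32 to 1.79, for counting error), a log2 difference of 0.62. Of 5191 genes detected in at least 10% of cells in both flasks, TFPI2 among them, 3 were at least 1.5 times as high in SplitB (0.0578%) and 0 were as far higher in SplitA. The other two were the metallothionein genes MT2A (58.3 and 109 CPM) and MT1X (54.7 and 100.4 CPM), which bind zinc and copper. The median log2 difference over all these genes was -0.0047. Without the 1% of cells richest in TFPI2 in each flask the ratio was 1.45 (1.22 to 1.73). One flask against one flask allows no test, so whether the flasks differ beyond the spread among flasks cannot be told.

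Among genes detected in at least 10% of cells in both flasks, CHGB, S100A11 and GAL varied most closely with TFPI2 over cells. Pearson's r was taken within each flask on ln(1 + UMIs per 10000) over the 5190 other genes. It was at least 0.2 in both flasks for 10 genes (0.193% of those examined) and at most -0.2 in both for 3 (0.0578%). The cells of 1 flask share a library, a culture and a depth distribution, and the same cells led to the choice of TFPI2, so no p is given.

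The highest values belonged to CHGB, chromogranin B, an acidic protein of dense-core secretory granules, with r = 0.399 in SplitA and 0.402 in SplitB. S100A11, a calcium-binding protein that partners annexins, followed with 0.403 and 0.36. GAL, the neuropeptide galanin, had 0.353 and 0.322. Also among the 10 were VGF, a nerve growth factor-induced neuropeptide precursor (0.275 and 0.242), and GNAS, the stimulatory G protein alpha subunit whose locus also encodes a granin-like protein (0.272 and 0.25). The remaining genes were DLK1, a membrane protein of neuroendocrine progenitors (0.25 and 0.242), VIM, the intermediate filament vimentin (0.278 and 0.239), S100A6 (0.236 and 0.262), ANXA2, annexin A2, a plasminogen-binding protein (0.206 and 0.211), and GNG11, a G protein gamma subunit (0.241 and 0.255). S100A10 was detected in 7.01% and 8.45% of cells, under the 10% limit, and was not ranked. Its r was 0.372 in SplitA and 0.336 in SplitB, above that of GAL. The other listed S100 genes that missed the limit were lower. S100A16 had 0.181 and 0.173, S100A13 0.0878 and 0.0916, and S100A4 -0.0148 and -0.0324.

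**Figure D2:**
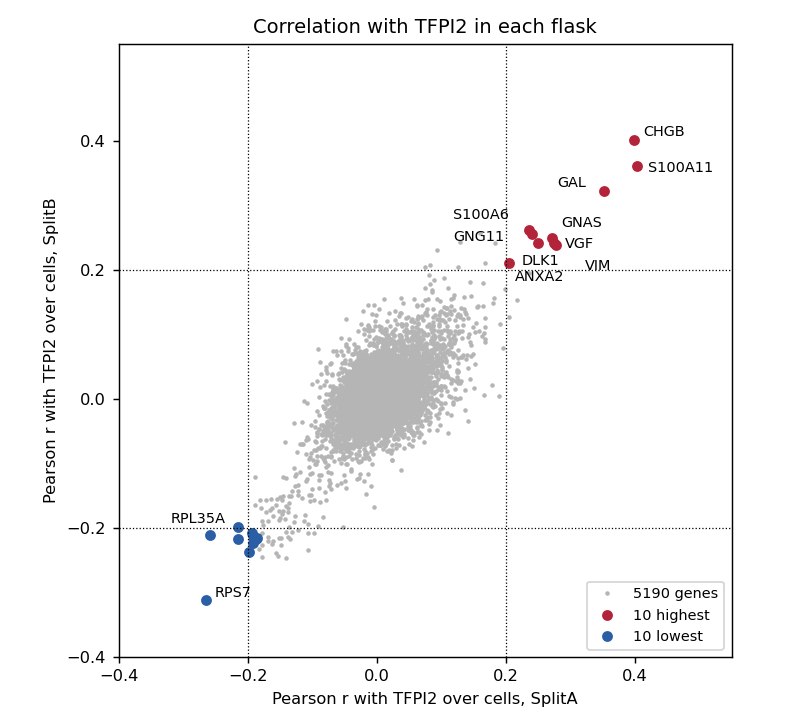
Pearson r of each of 5190 genes with TFPI2 over the cells of SplitA (x axis) and SplitB (y axis); red points are the 10 genes with the highest smaller r, blue points the 10 with the lowest larger r, and dotted lines mark 0.2 and -0.2. CHGB, S100A11 and GAL lie apart at the upper right and RPS7 at the lower left.

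Genes ranked in one flask were then read in the other. The 25 genes with the highest r in SplitA all had a positive r in SplitB, with a median of 0.195 against 0.00574 over all genes. Of these 25, 20 were at least 0.1 in SplitB, as were 4.05% of all genes. In the other direction the 25 highest of SplitB were all positive in SplitA, with a median of 0.168 against 0.00558. Of these, 19 were at least 0.1 in SplitA, as were 3.70% of all genes.

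At the lower end stood RPS7 (-0.265 and -0.312), RPL35A (-0.258 and -0.211) and RPL22L1 (-0.215 and -0.218), which encode ribosomal proteins or a close homologue of one. Of the 10 genes with the lowest values 9 were of this kind (among them also RPLP2, RPS19, RPS3, RPL27A and RPS14) and 1 was PTMA, prothymosin alpha, a nuclear protein of proliferating cells (-0.193 and -0.224). At the lower limit of 0.1, 80 genes were positive in both flasks (1.54%) and 88 negative (1.7%). Of 82 ribosomal protein genes 69 were among the negative genes and 0 among the positive ones. Their median r was -0.146 in SplitA and -0.185 in SplitB. Since each value is a share of its cell's UMIs, an abundant gene can fall in share when others rise, so the values were also taken against a total without mitochondrial and ribosomal protein genes. The median was then -0.154 and -0.194, with 72 of the 82 at or under -0.1 in both flasks. That total still held GAL, DLK1 and the other genes that rose with TFPI2, so it could not remove this effect of shares. How much of the negative r came from it was not tested.

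The same relation was seen as levels in cells thinned to 2000 UMIs and grouped by the TFPI2 UMIs left in the cell. These groups held 852, 29 and 17 cells of SplitA with none, 1, and 2 or more, and 1105, 61 and 27 cells of SplitB. The groups were cut from TFPI2 itself, so their values describe the relation and do not test it. Over these groups CHGB was at 147, 397 and 1618 CPM in SplitA, and at 131, 352 and 1370 CPM in SplitB. The ratio between the outer groups was 10.98 and 10.4. Their counting intervals in SplitA were 130 to 167 and 1219 to 2106 CPM, which leave out the spread of CHGB from cell to cell. A CHGB UMI was present in 16.9% and 17.0% of the cells without TFPI2 and in 70.6% and 77.8% of those with 2 or more. S100A11 was at 70.4, 276 and 471 CPM in SplitA and at 75.6, 262 and 556 CPM in SplitB. For GAL the levels were 923, 2517 and 6059 CPM in SplitA and 935, 2885 and 6093 CPM in SplitB. These 3 genes were thus between 6.51 and 10.98 times as high in the cells richest in TFPI2.

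GNAS was 3.06 and 2.89 times as high in cells with 2 or more TFPI2 UMIs as in cells with none, DLK1 2.43 and 3.71 times, VIM 5.93 and 2.92 times, and VGF 2.93 and 6.50 times. GNG11 was 2.21 and 3.59 times as high, S100A6 1.90 and 4.54 times. ANXA2 rested on 5 and 8 UMIs in the TFPI2-rich cells, with 4.11 and 4.20 times the level of the other cells. RPS7 was at 5024 CPM in cells without TFPI2 and 3029 CPM in those with 2 or more in SplitA, and at 5121 and 2926 CPM in SplitB, which is 0.603 and 0.571 of the level in cells without TFPI2. The groups had like depths before thinning, with medians of 6073.5 and 5754 UMIs in the outer groups of SplitA and 6351 and 6142 in SplitB. Median mitochondrial shares were 8.61% and 9.18% in SplitA, and 8.81% and 8.73% in SplitB.

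**Figure D3:**
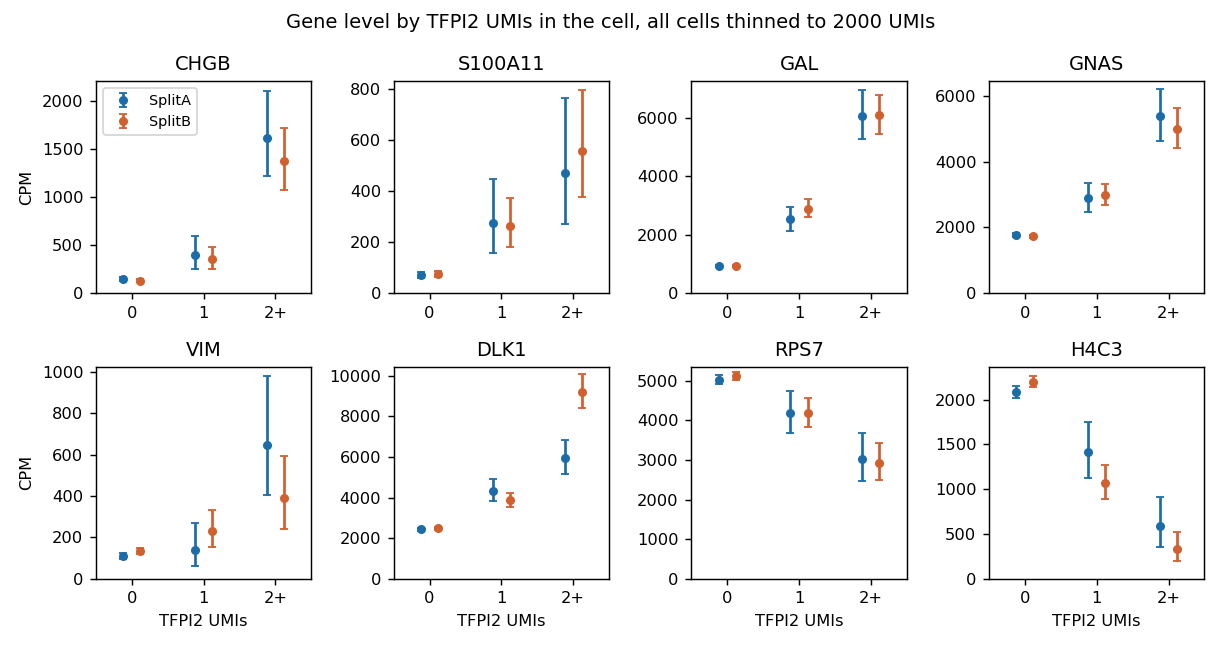
CPM of 8 genes in cells with 0, 1, and 2 or more TFPI2 UMIs after thinning every cell to 2000 UMIs, for SplitA (blue) and SplitB (orange); bars are exact 95% Poisson intervals of the summed counts. CHGB, S100A11, GAL, GNAS, VIM and DLK1 are highest in the cells with 2 or more, and RPS7 and H4C3 lowest.

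Read the other way round, the level of TFPI2 was highest in cells that held both leading genes. CHGB and S100A11 were picked for their r with TFPI2 in these same cells, so this is the same relation and no independent result. In the thinned cells TFPI2 was at 16.6 CPM (10.5 to 24.9) in the 693 cells of SplitA with neither CHGB nor S100A11, and at 23.8 CPM (17.3 to 32.1) in the 902 such cells of SplitB. Cells with both, 53 and 61, had 292 CPM (199 to 415) and 344 CPM (248 to 465). Cells with one of these genes lay between. TFPI2 was at 53.6 and 161 CPM with CHGB alone and at 87.5 and 144 CPM with S100A11 alone. CHGB and S100A11 themselves were correlated, with r = 0.576 in SplitA and 0.457 in SplitB. TFPI2 was still found outside the cells with both genes. In SplitA, cells with neither gene held 23 of its thinned UMIs and cells with both held 31. In SplitB these counts were 43 and 42, and cells with CHGB alone held 55.

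By cell cycle phase, called from Seurat's S and G2M lists, the level of TFPI2 was highest in G1 of both flasks, at 62.7 CPM (52.9 to 73.7) in SplitA and 97.2 CPM (86.9 to 108) in SplitB. In S phase it was at 31.1 CPM (23.9 to 39.7) and 32.7 CPM (26.4 to 40.2). The G2M cells had 30.8 CPM (22.5 to 41.1) in SplitA, near the S phase value, and 64.4 CPM (53.8 to 76.6) in SplitB, between the other phases. The share of cells with a UMI in SplitB was 17.6% in G1, 12.5% in S and 20.4% in G2M, and 8.82%, 4.81% and 8.63% after thinning, so G1 did not stand above G2M there by this measure. In SplitA it was 16.1% in G1, 11.1% in S and 10.3% in G2M. Of the cells with 5 or more UMIs, 11 of 15 in SplitA and 25 of 36 in SplitB were called G1, as were 372 of all 899 and 500 of all 1195 kept cells. H4C3, a replication-dependent histone gene, was at 2083 CPM in the thinned cells without TFPI2 and at 588 CPM in those with 2 or more in SplitA, and at 2202 and 333 CPM in SplitB. The S score had r = -0.0503 and -0.0861 with TFPI2 and the G2M score -0.0786 and 0.00914.

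Cells with a mitochondrial share of 15% or more had the highest TFPI2, at 108 CPM (68.7 to 163) in 70 cells of SplitA and 187 CPM (144 to 239) in 104 cells of SplitB, against 40.4 and 63.8 CPM in cells under 10%. These cells were shallow, with medians of 2703.5 and 2836.5 UMIs, and held 0 and 2 of the cells with 5 or more TFPI2 UMIs. The correlation with the mitochondrial share was 0.129 and 0.147 and that with log10 UMIs 0.0266 and 0.00632. With the total and the mitochondrial share taken out by regression, 12 genes were past 0.2 or -0.2 in both flasks, 11 of them among the 13 above.

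**Figure D4:**
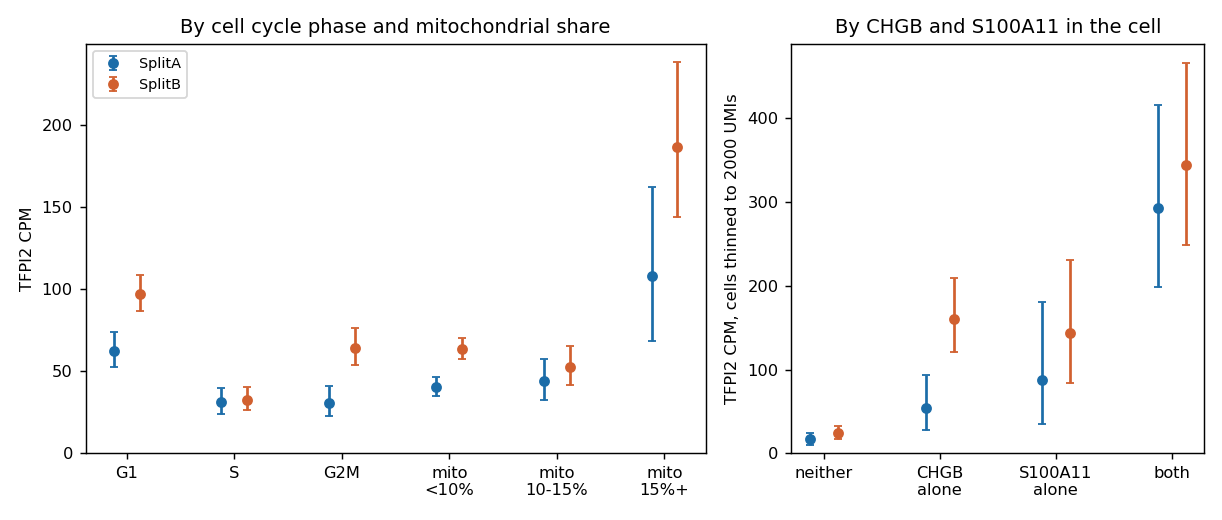
TFPI2 CPM with exact 95% Poisson intervals for SplitA (blue) and SplitB (orange), by cell cycle phase and mitochondrial share (left, all UMIs) and by whether the cell held CHGB, S100A11, both or neither (right, cells thinned to 2000 UMIs). In both flasks the TFPI2 level is highest in G1, in cells with 15% or more mitochondrial UMIs, and in cells with both genes.

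Of 17 further Kunitz domain genes, 9 had a UMI in the kept cells and 8 had none. Over all 33538 genes, 15475 had no UMI in any cell, and 5191 were detected in at least 10% of cells in both flasks. The counts for this list lie near those shares, so they show nothing particular to Kunitz domain genes. APP and APLP2, the amyloid precursor protein and its homologue, were the 2 members detected in 10% of cells, with r of 0.0267 and 0.0305 for APP and 0.0389 and 0.113 for APLP2. TFPI, the paralogue that blocks tissue factor and factor Xa, had 1 UMI in SplitA and 0 in SplitB. SPINT1 and SPINT2, membrane-bound Kunitz inhibitors, had 6 and 5 UMIs (SPINT1) and 5 and 8 UMIs (SPINT2) in SplitA and SplitB.

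Among 13 proteases of coagulation, fibrinolysis and trypsin type, plasminogen (PLG), F2, F7, F11 and PRSS1 were at 0 UMIs. F12, coagulation factor XII, and PRSS3, mesotrypsin, were the 2 within the detection limit, with r of -0.0325 and 0.00983 for F12 and -0.00629 and 0.0146 for PRSS3. PLAT, the tissue plasminogen activator, was at 11.3 and 11.2 CPM, and F3, tissue factor, at 1.88 and 1.74 CPM. Reads of PRSS1, PRSS2 and PRSS3 can be split among these near-identical genes. MMP2, a gelatinase, was the 1 of 9 matrix metalloproteinases within the limit (0.00138 and 0.055), and 3 of the 9 were at 0. For the proteases and the metalloproteinases, too, the counts at 0 and within the limit lie near the shares over all genes.

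The counts of the next lists stand beside 1.54% of all genes at or above 0.1 and 1.7% at or under -0.1 in both flasks, and for lists this short they are descriptions of the members named. Of 15 other protease inhibitors 6 were within the limit, and 1 passed 0.1 in both flasks. This was TIMP1, a metalloproteinase inhibitor, with 0.11 and 0.172, and with 83.9 and 235 CPM in the thinned SplitA cells with no and with 2 or more TFPI2 UMIs, and 81.9 and 204 CPM in SplitB. Among 5 cell-surface plasminogen binders, 3 were within the limit and 2 passed, ANXA2 and ENO1 (enolase, 0.119 and 0.138). Of the 9 S100 and annexin genes 4 were within the limit and S100A11, S100A6 and ANXA2 passed. ANXA5 did not, with 0.0705 and 0.0381. None of the 5 extracellular matrix genes within the limit, of 24, passed 0.1 in both flasks. Of those under the limit, COL3A1 (24 and 45 UMIs) had 0.344 and 0.108, and no other reached 0.1 in both flasks.

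The adrenergic markers of the line were present, with 8 of 10 within the detection limit and all 10 with a UMI. DBH, dopamine beta-hydroxylase, which makes noradrenaline (0.236 and 0.195), and CHGA, chromogranin A, the other major granin (0.205 and 0.127), passed 0.1 with TFPI2. The transcription factors PHOX2A, HAND2, GATA3, ISL1 and TFAP2B did not, and the median over the 8 was 0.0387 and 0.0176. Of 10 mesenchymal markers, PRRX1 was at 0 UMIs, 2 were within the limit, and VIM was the 1 that passed. TWIST1 had -0.0461 and -0.0714. The summed mesenchymal level was 280 and 794 CPM in the thinned SplitA cells with no and with 2 or more TFPI2 UMIs, and 299 and 519 CPM in SplitB, of which VIM alone made up 109 and 647 CPM and 133 and 389 CPM. The summed adrenergic level was 2446 and 3618 CPM in SplitA and 2412 and 4204 CPM in SplitB.

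The study named TFPI2 itself among the most variable genes in these cells, together with 9 others. The relation of these 9 to TFPI2 is therefore not independent evidence. Of the 8 within the limit GAL, CHGB, S100A11, DLK1 and CHGA passed 0.1 and H4C3 passed -0.1 (-0.126 and -0.135). MT1X and MT2A, which shared with TFPI2 a higher level in SplitB, did not pass, with 0.00855 and 0.103 for MT1X and 0.0815 and 0.117 for MT2A. In thinned SplitB cells with no and with 2 or more TFPI2 UMIs, MT1X was at 82.4 and 556 CPM and MT2A at 93.2 and 574 CPM. The MT1X UMIs of the richer group lay in 14.8% of its cells. In SplitA the levels were 55.2 and 29.4 CPM for MT1X and 59.9 and 176 CPM for MT2A, on 1 and 6 UMIs in the richer group.

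Around TFPI2 on chromosome 7, a window of 1 Mb on each side held 36 annotated genes, of which 19 were in the count table and 8, TFPI2 included, had 10 or more UMIs. GNG11 starts 31.0 kb from TFPI2 on the opposite strand and was the abundant gene of the window, at 486 and 525 CPM, with UMIs in 81.0% and 82.1% of cells. It was also the neighbour with the highest r. PEG10, an imprinted retrotransposon-derived gene 766 kb away, had 0.0872 and 0.127, and SGCE, the imprinted gene beside it, 0.0615 and 0.0603. BET1, a vesicle transport protein gene between GNG11 and these, had 0.0149 and 0.0861. Values were 0.0149 and -0.00736 for CASD1, 0.0541 and 0.00661 for VPS50, and -0.0804 and -0.0909 for CDK6-AS1 at the far end of the window. The collagen gene COL1A2 and the receptor gene CALCR were at 0 UMIs. Of these 7 neighbours GNG11 was the 1 past 0.2 in both flasks, a limit that 0.193% of the 5190 genes examined passed upwards. The other neighbours were detected in fewer cells. They ranged from VPS50 in 3.23% and 3.51%, under the 10% limit, to PEG10 in 37.7% and 43.3%. The part of detection in these differences of r was not tested.

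**Figure D5:**
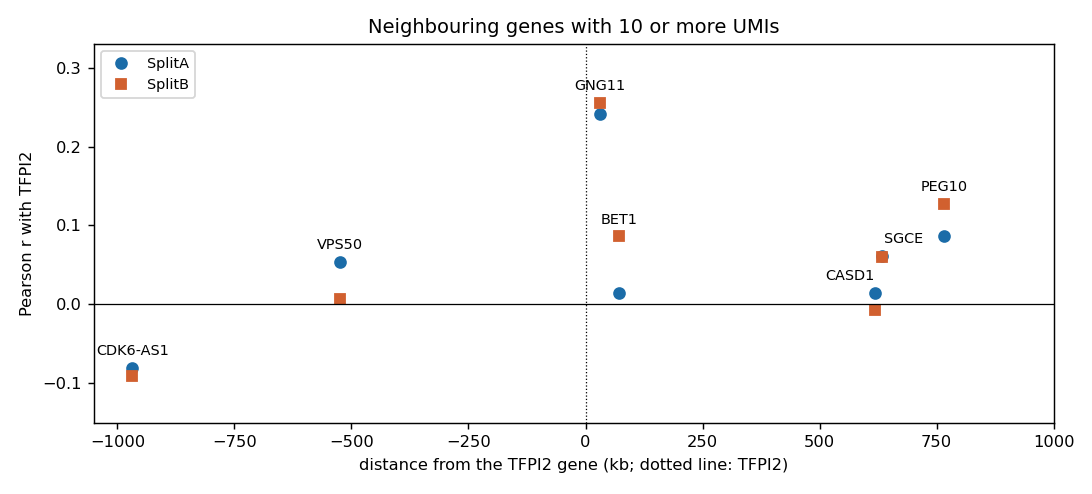
Pearson r with TFPI2 over cells for the 7 other genes within 1 Mb with 10 or more UMIs, by distance from the TFPI2 gene in kb (0 is TFPI2), for SplitA (circles) and SplitB (squares). GNG11, 31.0 kb away, is above 0.2 in both flasks and the rest are below 0.15.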

How the data were processed

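Single-cell 3′ transcript counts and hashtag counts were measured in untreated SH-SY5Y cells of 2 pooled flasks. The authors aligned the reads to GRCh38 with STAR 2.7 and counted them with Cell Ranger 4.0.0, per the study's methods, and the deposited values are raw UMI counts per gene and cell. The annotation they counted with is not given in the sources used here. Replicates are 2 flasks split from 1 culture, so a spread between them may be technical.

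Genes were matched by Ensembl identifier (33113 of 33538 with a symbol). Levels are CPM of summed UMIs with exact Poisson intervals, and shares have exact binomial (Clopper-Pearson) intervals at 95%. Cells were thinned to 2000 UMIs with seed 7. Correlations used natural log values, ln(1 + UMIs per 10000), for genes detected in 10% or more of cells in both flasks. Phases came from Seurat 5.3.0 and trimmed mean factors from edgeR 4.0.16. Kept cells ranged in depth as given, and the 13 mitochondrial genes were summed for their share. The correlation step was tested on simulated counts in several seeded draws. In some draws, division by the cell total gave unchanged abundant genes a negative r past the limit, and none a positive one, so a total without mitochondrial and ribosomal protein genes was added as an alternative after seeing the data. This total still held the genes that rose with TFPI2. With 1 condition there was no comparison to test, so no p is given, and no doublet caller was run.

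Named genes were TFPI2, genes within 1 Mb with 10 or more UMIs, members of the gene lists, the 10 highest and 10 lowest in both flasks by r, and the 5 nearest in mean. TFPI2, the lists and the limits were chosen with earlier results of these data known. The lists held Kunitz domain genes, proteases, metalloproteinases, other inhibitors, plasminogen binders, S100 and annexin genes, extracellular matrix, adrenergic, mesenchymal, study-variable, immediate early, p53, hypoxia, S and G2M genes. Values of some list members and named genes are not reported here.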

Additional observations from a re-analysis of the deposited data

Results flagged for a closer look

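TFPI2 was also counted in cells that entered no value above. The study's multiplets are cells whose hashtags met the rule of neither flask, and 73 of them had at least 1000 genes. In these, TFPI2 was at 46.7 CPM (27 UMIs, exact Poisson interval 30.8 to 68.0), between the 2 flasks. A UMI was present in 16.4% of them (8.79% to 27.0%).

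In 690 singlets with under 1000 genes TFPI2 was at 146 CPM (144 UMIs, interval 123 to 172), above both flasks, with 174 CPM in the SplitA cells and 126 CPM in the SplitB cells. A UMI was present in 11.6% of them at a median depth of 1406.5 UMIs, and 6 of them had 5 or more. Their median mitochondrial share was 35.0%. CHGB was at 692 CPM in these cells, above its 192 and 183 CPM in the kept cells, VGF at 485 CPM, S100A11 at 48.6 CPM, GAL at 446 CPM and GNG11 at 212 CPM. TFPI2, CHGB and VGF were thus higher in the shallow cells than in the kept cells, and GAL, S100A11 and GNG11 were lower. The part of cell damage or of free RNA in these values was not tested.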

How the results depend on the processing

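No paired analysis was possible because the 2 flasks are replicates of 1 condition and no groups were compared. The share of cells, as the mean of the flasks, was 14.7% and 6.25% after thinning to 2000 UMIs, and ranged from 13.01% to 16.5% with one flask left out. The level ranged from 43.6 to 66.9 CPM and the variance-to-mean ratio from 3.59 to 7.14 with one flask left out. The other settings moved these means by less than 1 SD of the flasks, but the ratio was 3.10 after thinning and 3.46 without the top 1% of cells, against 5.37. The ratio of SplitB to SplitA lay between 1.36 (singlets of any gene number) and 1.63 (lower hashtag at most 100) over 7 settings, within its counting interval in each.

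The number of genes past 0.2 or -0.2 in both flasks was 13. It was 6 with singlets of any gene number (4 of the 13 among them), 3 after thinning (all 3 among the 13, with 1862 genes within the detection limit), and 28 with S and G2M scores taken out, 10 positive and 18 negative, with all 13 among them. Against a total without mitochondrial and ribosomal protein genes, a setting added after seeing the data, it was 14, with 12 of the 13 among them. In a single flask it ranged from 17 to 50. Over 12 settings the mean r of the 20 named genes kept its sign in all 240 values, with a smallest size of 0.0886. These genes were picked for their extreme r in the same cells, so the kept sign is no independent result. With genes in at least 5% of cells allowed, their values equalled the main ones by construction. Of the 240 values, 134 differed from the main value by more than the SD of the flasks, and 106 did not. The mean r of 3 genes stayed past 0.2 in every setting.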

Other observations

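Further gene lists were read at the limit of 0.1 in both flasks, which 1.54% of all 5190 genes passed upwards and 1.7% downwards, so a count of 0 in lists of this size is near that background and shows no absence of a relation. Of 12 immediate early and AP-1 genes, 6 were within the detection limit (JUN, JUNB, JUND, FOS, EGR1 and IER2) and 0 passed in either direction, with a median r of 0.0357 in SplitA and 0.0405 in SplitB, where the medians over all genes were 0.00558 and 0.00574. The 8 of 18 p53 target genes within the limit, CDKN1A and BAX among them, had medians of 0.0102 and 0.00591 and 0 passed. For the 3 of 11 hypoxia genes within it, VEGFA, SLC2A1 and BNIP3, the medians were 0.041 and 0.0511, and 0 passed. Of the 28 S phase genes and the 36 G2M genes within it 0 passed, with medians of -0.00703 and -0.0165 for S phase and -0.0287 and 0.0144 for G2M.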
